A study of Homo sapiens and Mus musculus with 24 samples.

Results

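The 10 genes described here, SPRY1, SPRY2, SPRY4, SPRED1, SPRED2, DUSP4, DUSP5, DUSP6, ETV4 and ETV5, are genes that the RAS-ERK pathway switches on and that, apart from the ETV factors, restrain that same pathway. They were found by symbol, and all 10 of 10 are present among the 56981 gene symbols of the MCF10A tables. MCF10A cells are a non-tumorigenic line of human breast epithelium. The line was grown in 2 genotypes: the parental line (PIK3CA wildtype) and its isogenic partner, bought with it, that is heterozygous for a knock-in (KI) of PIK3CA H1047R, a substitution that makes the enzyme PI3K alpha overactive. Each received either the solvent DMSO or BYL719 (alpelisib, a PI3K alpha inhibitor) at 1 uM for 4 h, which gives 4 groups of 3 libraries: parental DMSO, parental BYL719, KI DMSO and KI BYL719. The other 12 of the 24 libraries, from mouse embryonic fibroblasts, list transcripts without gene names and were not used here. The sources used here do not state whether the KI line is 1 clone or whether the 3 libraries of a group are separate cultures. Clone and genotype therefore cannot be told apart, and p-values measure the spread among these libraries, which may be technical.

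ERK is the last kinase of the RAS-RAF-MEK cascade that growth factor receptors start in epithelial cells. Sprouty proteins (SPRY) and the related SPRED proteins act at the membrane to lower signalling to RAS and RAF, and DUSP phosphatases remove the activating phosphates from ERK and related kinases. ETV4 and ETV5 are ETS transcription factors of the PEA3 group. Since ERK activity raises the transcripts of these genes, they are widely read as a record of recent ERK signalling. PI3K is activated by many of the same receptors as RAS.

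Levels are given in CPM, the estimated read pairs of a gene scaled to a common library total, with the standard deviation (SD) over n = 3 libraries. The libraries held 120177015 to 162755457 estimated pairs. Differences are log2 fold changes with their standard error (SE) from the edgeR quasi-likelihood test fitted to all 12 libraries, and a gene is called where its Benjamini-Hochberg adjusted p, over the 21055 genes tested, is under 0.05. All 10 genes passed the low-count filter. The labelled cell type was checked against 10 mammary epithelial markers, all with a mean above 1 CPM in every group. Their sum was 8310 to 8750 CPM in parental and 7360 to 7670 CPM in KI libraries, without overlap. In DMSO CDH1 had a mean of 241 CPM in parental and 110 in KI cells, TP63 of 78.8 and 27.7, and KRT14 of 52 and 263. The part of these marker differences in the line differences below was not tested. Of 5 endothelial markers only KDR had a mean above 1 CPM in any group, and of 5 haematopoietic markers only CD68, while HBB was at 0 in all groups. Of 5 fibroblast markers only COL1A1 had a mean above 1 CPM in every group, and their sum was 17.9 to 31.7 CPM. COL1A2 and COL3A1 were at 4.33 and 2.12 CPM in KI BYL719 replicate 3 and at no more than 0.306 and 0.157 CPM in any other library, and their part in the results was not tested.

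Of the KI libraries, 2 stand apart. KI DMSO replicate 2 lay at 54.08 on the second principal component of all genes, against 14.09 and 17.06 for the others of its group. KI BYL719 replicate 1 did not stand apart on the first 2 components, yet it held the highest value of its group for all 10 feedback genes.

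Per transcript length, in the TPM that the authors deposited, ETV4 was the most abundant of the 10 in parental DMSO at 18.3 ± 1.36 TPM. ETV5 (13.7 ± 2.34) and DUSP6 (12.4 ± 1.46) came next and did not differ beyond their SD, and DUSP4 followed at 10.0 ± 1.15. SPRED2 was at 8.18 ± 0.854, SPRED1 at 6.65 ± 0.78 and SPRY2 at 6.39 ± 0.276 TPM. DUSP5 and SPRY4 lay close together at 3.75 ± 0.458 and 3.6 ± 0.642 TPM, and SPRY1 was the lowest at 1.4 ± 0.305. In KI DMSO the order of means changed at the top: DUSP4 led at 19.3 ± 2.67 TPM, and ETV4 lay below ETV5 (16.5 ± 0.7) and DUSP6 (14.6 ± 2.71) at 13.7 ± 1.46. There DUSP4, ETV5 and DUSP6 did not differ beyond their SD, nor did DUSP6 and ETV4. SPRY4 moved up to 8.5 ± 2.1 TPM, within the SD of SPRED1 (9.0 ± 1.61) and SPRED2 (8.11 ± 2.24).

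The KI line carried more of this feedback RNA than the parental line in DMSO. Of the 10 genes, SPRY4, SPRED1, DUSP4, DUSP5 and ETV5 were called higher and ETV4 lower, so 6 of 10 were called where 34.3% of all genes tested were. Of all genes, 17.0% were called higher and 17.3% lower. SPRY1, SPRY2, SPRED2 and DUSP6 did not pass. The same contrast under BYL719 also had 6 of 10 called against 22.4% of all genes (11.5% higher and 10.9% lower): SPRY2, SPRY4, SPRED1, DUSP4 and ETV5 were higher in KI and ETV4 lower. The median log2 difference of the 10 genes was 0.44 in DMSO and 0.45 under BYL719, and that of all genes tested was 0.0049 and 0.0132. Without KI BYL719 replicate 1 the median under BYL719 was 0.24, with 6 of 10 called, where 4331 of 21474 genes tested were. In DMSO 8 of 10 were then called, where 7451 of those genes were. That library is in neither DMSO group and was singled out by its high values in these same 10 genes. The added calls in DMSO are therefore no independent support. Without KI DMSO replicate 2, 4 of 10 were called in DMSO, while the calls over all genes rose from 7220 to 8386. In DMSO the libraries of the 2 lines did not overlap for 7 of 10 genes, 6 higher and 1 lower in KI, against 45.8% of all genes (20.3% higher, 25.5% lower). Under BYL719 they did not overlap for 7 of 10, again 6 higher and 1 lower, against 46.1% of all genes (20.9% higher, 25.2% lower).

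By log2 fold change, 8 of these 10 genes lay lower under BYL719 than in DMSO in parental cells and 6 in KI cells. The median of the 10 was -0.27 and -0.18, against 0.0057 and 0.0195 over all genes tested. Few passed the test, and SPRY2 rose in both lines. In parental cells SPRY2 was the 1 gene of 10 called, and it rose, where 1.42% of all genes were called, 0.831% higher and 0.589% lower. The parental BYL719 and DMSO libraries did not overlap for 8 of the 10, against 31.5% of all genes: 7 lay lower with BYL719 (15.0% of all genes) and 1 higher (16.5%). In KI cells SPRY2 rose and DUSP5 fell, 2 of 10 where 28.3% of all genes were called, 15.1% higher and 13.2% lower. The KI groups did not overlap for those 2 genes, against 38.2% of all genes (20.6% higher, 17.6% lower). Without KI BYL719 replicate 1, 7 of 10 were called there, where 26.8% of all genes were called and 13.8% were called lower. SPRY2 then rose and SPRY4, SPRED1, DUSP4, DUSP5, DUSP6 and ETV5 fell. That library was singled out by its high values in these same genes. Calls of these genes added by leaving it out are therefore no independent support. This holds for every comparison, here and in the gene paragraphs below. Leaving out KI BYL719 replicate 2 or replicate 3 instead gave 2 of 10 called, where 4529 and 4237 of all genes were, against 5968 with all libraries. The interaction, which is the BYL719 effect in KI minus that in parental cells, called 0 of 10 by edgeR (2.88% of all genes, 2.09% higher and 0.798% lower) and 0 of 10 by DESeq2, with 1 gene, SPRY2, at an unadjusted p under 0.05. In bulk RNA, fewer cells with a transcript and less of it per cell cannot be told apart.

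**Figure D1:**
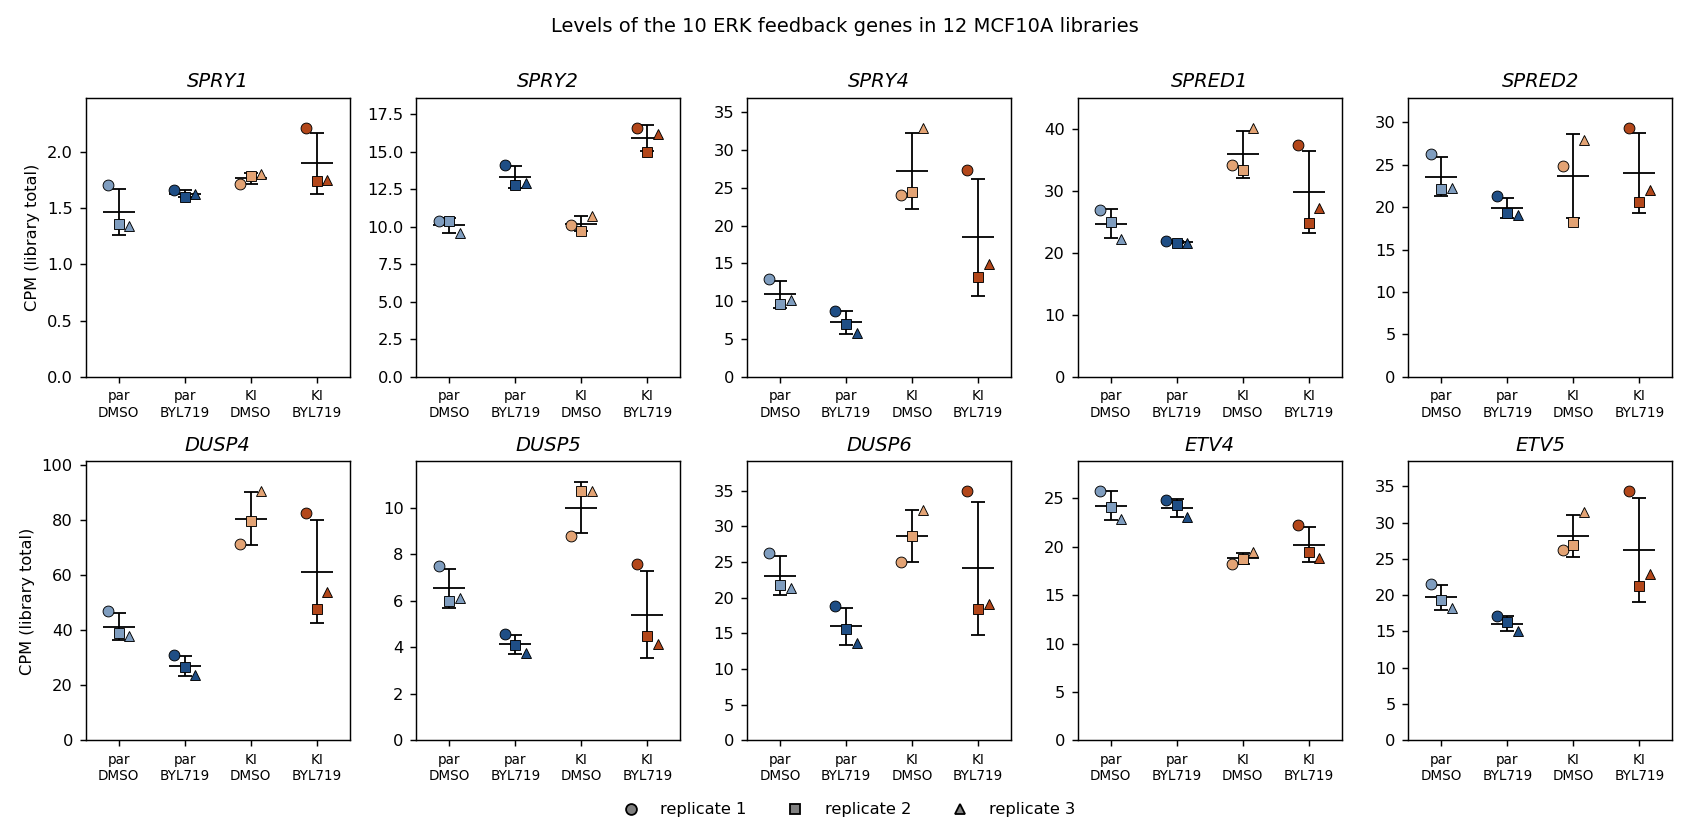
CPM by library total (vertical axis, from 0) of the 10 feedback genes in the 4 MCF10A groups; points are libraries with the replicate number as symbol, horizontal bars are group means and whiskers the SD of 3 libraries. SPRY4 and DUSP4 lie higher in both KI groups than in the parental groups, SPRY2 lies higher in both BYL719 groups, and KI BYL719 replicate 1 (circle) is the highest library of its group in all 10 panels.

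Promoters are shown for SPRY2, which rose with the inhibitor in both lines, and for SPRY4 and DUSP6, which ran together over the 12 libraries (r = 0.89). The group means of SPRY4 and DUSP6 lay lower with BYL719 in both lines, but neither gene was called. In KI cells their BYL719 and DMSO libraries overlapped. They are RefSeq windows (GRCh38.p14) from 250 bases before to 50 bases after an annotated start, written 5′ to 3′ on the minus strand, on which all 3 genes lie. SPRY2 is at chr13:80341077-80341376, SPRY4 at chr5:142324198-142324497 and DUSP6 at chr12:89352452-89352751. Capitals mark matches to any motif searched.
SPRY2: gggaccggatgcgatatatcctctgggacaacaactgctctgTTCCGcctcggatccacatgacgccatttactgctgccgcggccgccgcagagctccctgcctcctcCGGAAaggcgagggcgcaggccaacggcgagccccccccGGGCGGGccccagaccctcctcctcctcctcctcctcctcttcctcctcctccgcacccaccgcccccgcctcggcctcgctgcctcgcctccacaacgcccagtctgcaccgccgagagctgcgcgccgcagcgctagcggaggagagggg
SPRY4: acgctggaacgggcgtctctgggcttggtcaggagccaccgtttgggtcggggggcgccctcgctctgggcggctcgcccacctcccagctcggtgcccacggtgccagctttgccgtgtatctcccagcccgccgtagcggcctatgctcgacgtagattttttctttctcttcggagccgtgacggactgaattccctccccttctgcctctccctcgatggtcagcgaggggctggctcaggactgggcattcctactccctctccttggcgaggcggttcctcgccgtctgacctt
DUSP6: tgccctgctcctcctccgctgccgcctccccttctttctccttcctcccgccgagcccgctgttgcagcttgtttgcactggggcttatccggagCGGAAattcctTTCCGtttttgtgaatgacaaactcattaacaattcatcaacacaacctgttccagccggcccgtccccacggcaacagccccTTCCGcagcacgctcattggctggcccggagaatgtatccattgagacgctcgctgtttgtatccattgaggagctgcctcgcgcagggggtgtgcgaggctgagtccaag
The letters searched on both strands were the ETS motif CCGGAAG and its core CGGAA (contained in it), the cAMP response element TGACGTCA and its shorter form TGACGT (contained in it), the AP-1 motif TGANTCA, the FOXO motif GTAAACA, the SP1 motif GGGCGGG and the CArG box. DUSP6 held 3 matches to CGGAA, starting at -155, -144 and -61 from the start. SPRY2 held 2 matches to CGGAA, at -208 and -141, and 1 to GGGCGGG at -102, and SPRY4 held none of the motifs. The table holds 2 more windows for SPRY2, with no match in either. The SPRY2 window shown lies nearest to its main transcript SPRY2-202, but the starts are 175 nt apart and that of SPRY2-202 is outside the window. The SPRY2 positions are thus counted from the start of the window's own annotation. The windows of SPRY4 and DUSP6 lie nearest to SPRY4-205 and DUSP6-205, which are not their most abundant transcripts. Of all 35116 promoter windows in the table, 34.9% hold CGGAA, 33.1% GGGCGGG, 10.3% CCGGAAG, 7.98% TGACGT, 7.71% TGANTCA, 3.42% GTAAACA, 1.85% TGACGTCA and 1.29% a CArG box. So the matches in SPRY2 and DUSP6 are to motifs that about 1 window in 3 holds. A match is a description of these letters, and the table held entries for 6 of the 10 genes.

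SPRY4 (ENSG00000187678.9, GRCh38 chromosome 5, 142310427 to 142326455) encodes a Sprouty that inhibits receptor-driven RAS activation. In parental DMSO it was at 13, 9.63 and 10.2 CPM in replicates 1 to 3 and in parental BYL719 at 8.75, 7.04 and 5.79. In KI DMSO it was at 24.1, 24.5 and 33 CPM and in KI BYL719 at 27.4, 13.2 and 14.9. Every KI library lay above every parental library, so the groups of the 2 lines do not overlap in either treatment. SPRY4 had the largest line difference of the 10 genes, with log2 1.34 (SE 0.253, edgeR adjusted p = 0.00149) in DMSO and 1.39 (SE 0.258, adjusted p = 0.00173) under BYL719. Both calls held in every alternative tried. The BYL719 response did not pass in parental cells (log2 -0.61, adjusted p = 0.359), where the 2 groups nevertheless do not overlap. In KI cells it did not pass either (log2 -0.56, SE 0.248, adjusted p = 0.117), and replicate 1 of KI BYL719 lay among the KI DMSO libraries. Without that library SPRY4 fell by 0.99 on the log2 scale (SE 0.184, adjusted p = 0.00254), and the line difference under BYL719 was 0.98 (adjusted p = 0.00263).

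SPRY2 (chromosome 13, 80335976 to 80340951), another Sprouty, did not follow SPRY4. It was at 10.4, 10.4 and 9.55 CPM in parental DMSO and at 10.1, 9.74 and 10.7 in KI DMSO, which overlap (log2 0.03, adjusted p = 0.715). BYL719 libraries were at 14.1, 12.8 and 12.9 CPM in parental cells and at 16.6, 15.0 and 16.2 in KI cells. All 6 BYL719 libraries were above all 6 DMSO libraries. SPRY2 rose with BYL719 by log2 0.64 in KI cells (SE 0.0633, adjusted p = 1.73e-05), a call that held in every alternative, and by 0.39 in parental cells (SE 0.0633, adjusted p = 0.0112). Leaving out any parental DMSO library, or parental BYL719 replicate 1, ended the parental call (adjusted p = 0.0535 to 0.0716), at log2 0.34 to 0.40. Under BYL719 SPRY2 was higher in KI than in parental cells (log2 0.29, adjusted p = 0.00445). The difference between the 2 responses was log2 0.26 (SE 0.0894, unadjusted p = 0.0136, edgeR adjusted p = 0.16).

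SPRY1 (chromosome 4, 123396795 to 123403760) was the least abundant Sprouty, at 1.47 ± 0.207 CPM in DMSO and 1.63 ± 0.0307 with BYL719 in parental cells, and at 1.77 ± 0.0485 and 1.9 ± 0.272 CPM in KI cells. It passed no comparison. The KI and parental groups narrowly did not overlap in CPM in DMSO, at log2 0.30 (adjusted p = 0.0833). The highest parental library was at 1.71 CPM and the lowest KI library at 1.72. In TPM they overlapped, with parental DMSO replicate 1 at 1.73 and KI DMSO replicate 2 at 1.63. The log2 difference passed without parental DMSO replicate 1 (log2 0.43, adjusted p = 0.0322), the highest library of its group, or without KI BYL719 replicate 1 (adjusted p = 0.0374).

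SPRED1 and SPRED2 are Sprouty relatives that bind the RAS inhibitor neurofibromin (NF1) and bring it to the membrane. SPRED1 (chromosome 15, 38252326 to 38357249) was at 26.9, 24.9 and 22.3 CPM in parental DMSO and at 34.1, 33.3 and 40.2 in KI DMSO. With BYL719 it was at 21.9, 21.6 and 21.6 CPM in parental cells and at 37.4, 24.8 and 27.3 in KI cells. The KI libraries lay above the parental ones in each treatment without overlap. SPRED1 was higher in KI cells by log2 0.56 in DMSO (SE 0.128, adjusted p = 0.0047), a call that held in every alternative, and by 0.49 under BYL719 (SE 0.129, adjusted p = 0.0158). The second call was lost without parental BYL719 replicate 2 or 3 or KI DMSO replicate 2 (adjusted p = 0.0538 to 0.0543), with no filter on low counts (0.0728) and when only the groups compared were fitted (0.0889); without KI BYL719 replicate 1 the value was 0.27 (adjusted p = 0.0464). Its BYL719 response in KI cells was log2 -0.27 (adjusted p = 0.141) with all libraries and -0.50 (adjusted p = 0.0017) without KI BYL719 replicate 1. In parental cells the groups did not overlap, at log2 -0.19 (adjusted p = 0.663), which passed when only the parental libraries were fitted (adjusted p = 0.0288).

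SPRED2 (chromosome 2, 65310851 to 65432637) passed no comparison, unlike its relative. It was at 23.6 ± 2.3 CPM in parental DMSO and 23.7 ± 4.99 in KI DMSO, at log2 0.03 (SE 0.15, adjusted p = 0.907). Under BYL719 it was at 19.9 ± 1.2 CPM in parental and 24.0 ± 4.73 in KI cells (log2 0.30, adjusted p = 0.2), and without KI BYL719 replicate 1 the difference was 0.11 (adjusted p = 0.669). In DMSO it was 0.17 (adjusted p = 0.453) without KI DMSO replicate 2. The wide SD of KI DMSO comes with replicate 2, at 18.2 CPM against 24.9 and 27.9.

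DUSP4 and DUSP5 are nuclear phosphatases induced by ERK, and DUSP5 acts on ERK itself. DUSP4 (ENSG00000120875.9, on chromosome 8) was at 46.8, 39.0 and 37.9 CPM in parental DMSO and at 31.0, 26.6 and 23.7 in parental BYL719. In KI DMSO it was at 71.4, 79.8 and 90.4 CPM and in KI BYL719 at 82.5, 47.7 and 53.8. Its lowest KI library, in BYL719, was above its highest parental library, in DMSO. DUSP4 was higher in KI cells by log2 0.99 in DMSO (SE 0.179, adjusted p = 0.00103) and by 1.21 under BYL719 (SE 0.181, adjusted p = 0.000326), and both calls held in every alternative. The parental BYL719 response did not pass (log2 -0.61, SE 0.18, adjusted p = 0.144), although the groups do not overlap. It passed with DESeq2 (adjusted p = 0.0179), without KI BYL719 replicate 1 (adjusted p = 0.0248) and without both KI libraries that stand apart (adjusted p = 0.0409). In KI cells the response was log2 -0.40 (adjusted p = 0.117), and without KI BYL719 replicate 1 DUSP4 fell by 0.71 (SE 0.131, adjusted p = 0.0025).

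DUSP5 (chromosome 10, 110497838 to 110511544) was the 1 gene of the 10 that fell with BYL719 in KI cells with all libraries included. KI DMSO libraries were at 8.79, 10.7 and 10.7 CPM and KI BYL719 libraries at 7.56, 4.5 and 4.14, without overlap (log2 -0.90, SE 0.194, adjusted p = 0.00443). This call held in every alternative, and without KI BYL719 replicate 1 the value was -1.26 (adjusted p = 6.09e-05). Parental cells went from 7.51, 6.0 and 6.11 CPM in DMSO to 4.56, 4.09 and 3.74 in BYL719, also without overlap. That response did not pass (log2 -0.67, SE 0.197, adjusted p = 0.144) but did with DESeq2 (adjusted p = 0.0206), when only the parental libraries were fitted (adjusted p = 0.000121) and without KI BYL719 replicate 1 (adjusted p = 0.0144). In DMSO the KI line held more DUSP5 than the parental line (log2 0.65, adjusted p = 0.0205), but leaving out replicate 2 or 3 of either DMSO group ended the call (adjusted p = 0.0524 to 0.11), as did testing without a filter on low counts (0.0875). Under BYL719 the lines overlapped (log2 0.41, adjusted p = 0.17), and without KI BYL719 replicate 1 the difference was 0.07 (adjusted p = 0.781). The interaction was log2 -0.23 (adjusted p = 0.706) and passed only when both KI libraries that stand apart were left out (log2 -0.51, adjusted p = 0.0456).

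DUSP6 (chromosome 12, 89347232 to 89353271) is the cytoplasmic phosphatase specific for ERK. It was at 26.2, 21.8 and 21.3 CPM in parental DMSO and at 25, 28.6 and 32.3 in KI DMSO, which overlap (log2 0.34, SE 0.215, adjusted p = 0.255). It was at 18.8, 15.6 and 13.6 CPM in parental BYL719 and at 34.9, 18.4 and 19.1 in KI BYL719. The first KI BYL719 library was thus above every other library for DUSP6, and the other 2 were below every DMSO library. DUSP6 passed none of the 5 comparisons with all libraries. Without KI BYL719 replicate 1 its line difference in DMSO passed (log2 0.35, adjusted p = 0.0476) and it fell with BYL719 in KI cells (log2 -0.65, adjusted p = 0.00595), against -0.25 (adjusted p = 0.424) with it. That library was singled out by its high values in these genes, DUSP6 among them, so these added calls are no independent support. The line difference under BYL719 was 0.62 (adjusted p = 0.061); it passed without KI BYL719 replicate 2 (0.79, adjusted p = 0.0271) or 3 (0.77, adjusted p = 0.0386), and was 0.24 (adjusted p = 0.283) without replicate 1.

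The 2 PEA3 factors differed in the sign of the line difference. ETV5 (chromosome 3, 186046308 to 186110318) was at 21.5, 19.3 and 18.2 CPM in parental DMSO and at 26.2, 26.9 and 31.5 in KI DMSO. With BYL719 it was at 17.1, 16.3 and 15.0 CPM in parental and at 34.3, 21.2 and 22.9 in KI cells. ETV5 was higher in KI cells without overlap in both treatments, by log2 0.55 in DMSO (SE 0.15, adjusted p = 0.0135) and 0.72 under BYL719 (SE 0.151, adjusted p = 0.00361). The DMSO call was lost with effective-length offsets (log2 0.31, adjusted p = 0.183), with no filter on low counts (0.0711) and without parental DMSO replicate 3 (0.0545) or KI DMSO replicate 2 (0.0711). Fitting the BYL719 libraries alone ended the call under BYL719 (adjusted p = 0.0605), and without KI BYL719 replicate 1 the value was 0.46 (adjusted p = 0.00373). Its response to BYL719 in KI cells was log2 -0.11 (adjusted p = 0.62) with that library and -0.39 (adjusted p = 0.0089) without it. In parental cells the response was -0.29 (adjusted p = 0.505), and it passed when only the parental libraries were fitted (adjusted p = 0.00899).

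ETV4 (chromosome 17, 43527844 to 43579620) was at 25.7, 24.1 and 22.8 CPM in parental DMSO and at 18.2, 18.7 and 19.4 in KI DMSO. It was the 1 gene of the 10 that was lower in the KI line, by log2 -0.34 (SE 0.0678, adjusted p = 0.00208), a call that held in every alternative. Parental BYL719 libraries were at 24.8, 24.3 and 23.0 CPM and KI BYL719 libraries at 22.2, 19.4 and 18.8. The lines did not overlap under BYL719 either (log2 -0.22, SE 0.0677, adjusted p = 0.0318). That call was lost without parental BYL719 replicate 1 or 2 or KI BYL719 replicate 2 or 3 (adjusted p = 0.0942 to 0.133). BYL719 gave log2 -0.02 (SE 0.0675, adjusted p = 0.985) in parental and 0.10 (SE 0.0679, adjusted p = 0.308) in KI cells, the former being the smallest response in parental cells among the 10.

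**Figure D2:**
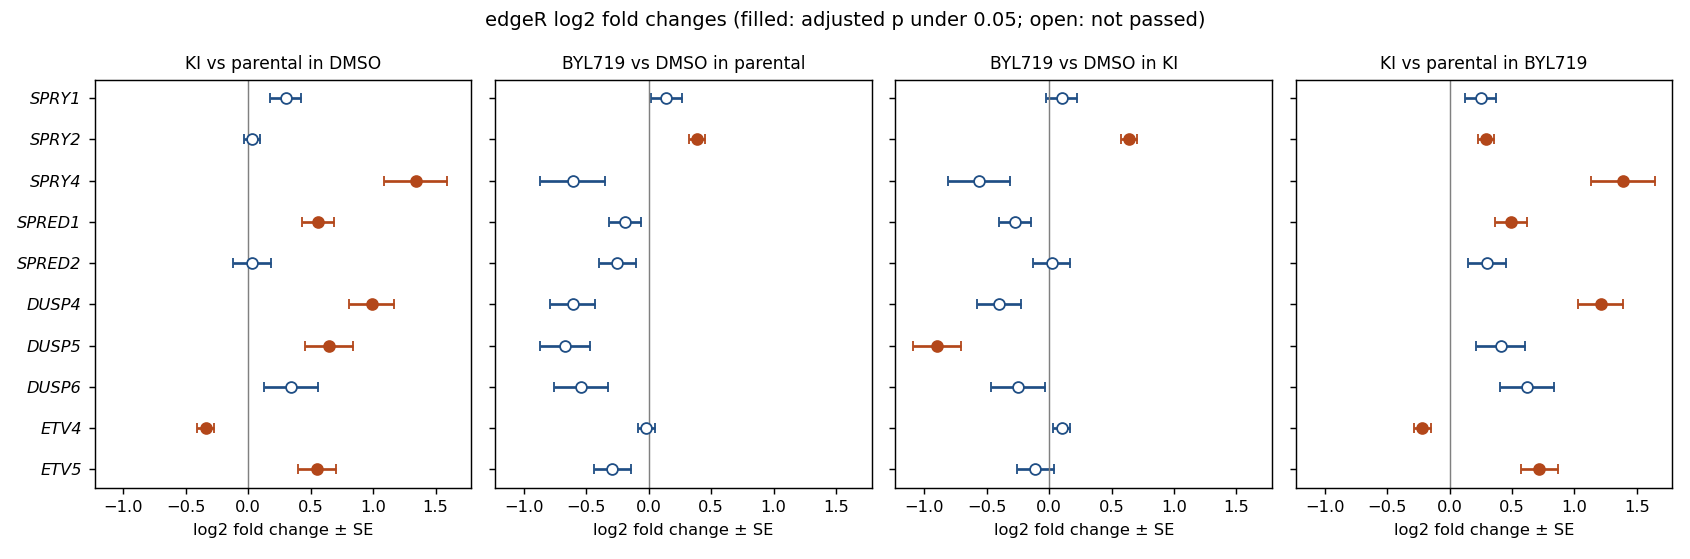
Log2 fold change (horizontal axis) with its SE for the 10 feedback genes in 4 comparisons; filled points have an adjusted p under 0.05 and open points do not. SPRY4 (1.34 and 1.39) and DUSP4 (0.99 and 1.21) lie farthest right in both line comparisons, ETV4 lies left of 0 in both, and SPRY2 is the filled point right of 0 in both BYL719 comparisons.

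The libraries of a group spread together in these genes. Measured against the other libraries of its group on the log2(CPM + 0.5) scale, KI BYL719 replicate 1 was higher by a median of 0.57 over the 10 genes, from 0.09 for SPRY2 to 0.94 for SPRY4. The 13 other ERK output genes had a median of 0.49 in that library, and all genes tested had -0.0082. Parental DMSO replicate 1 and parental BYL719 replicate 1 were also the highest of their groups for all 10 genes (median 0.24 and 0.14), and KI DMSO replicate 3 was the highest for 9 (median 0.25). Between 26.1% and 39.5% of all genes tested were highest in any given library. KI BYL719 replicate 1 held 136291428 estimated pairs, between the 131243191 and 142599972 of its group, and lay at 40.31 and -30.42 on the first 2 principal components, where the others of its group lay at 35.98 and -34.64 and at 35.82 and -38.29. The part of any handling difference in this spread was not tested.

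**Figure D3:**
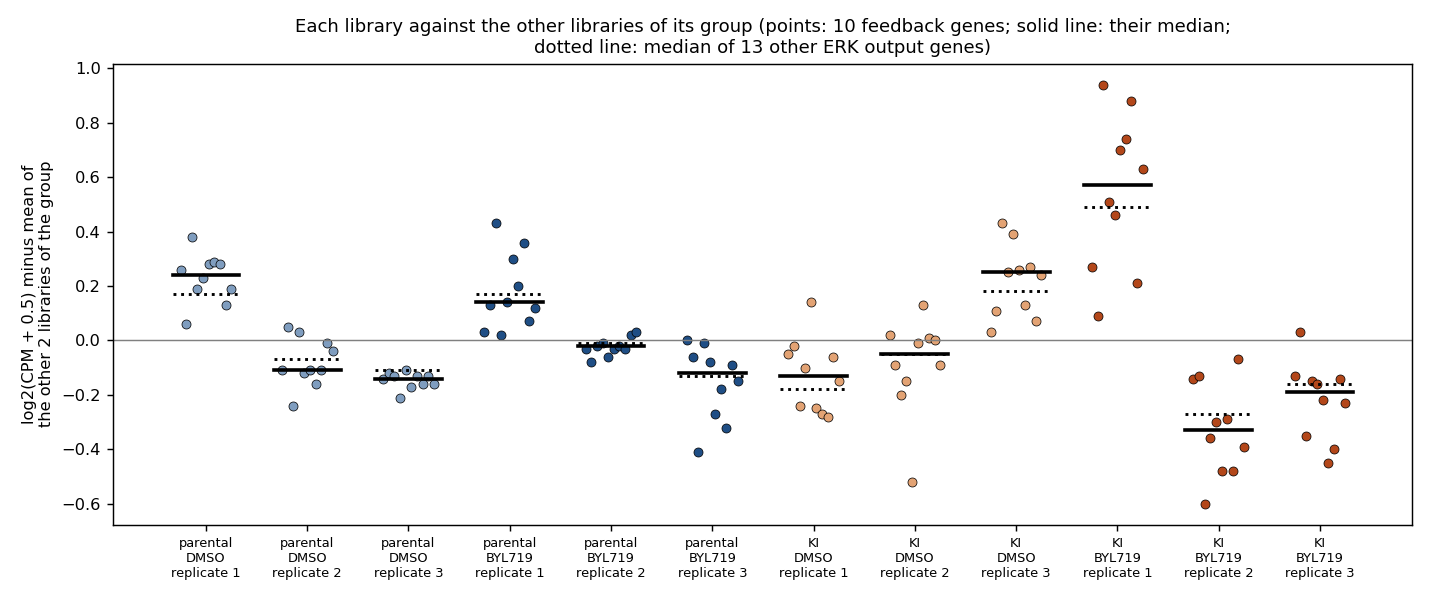
Difference of each library from the mean of the other libraries of its group, in log2(CPM + 0.5) (vertical axis), for the 10 feedback genes (points), with their median (solid line) and the median of 13 other ERK output genes (dotted line). KI BYL719 replicate 1 stands highest, with a median of 0.57, and the dotted line lies on the same side of 0 as the solid one in each library.

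**Figure D4:**
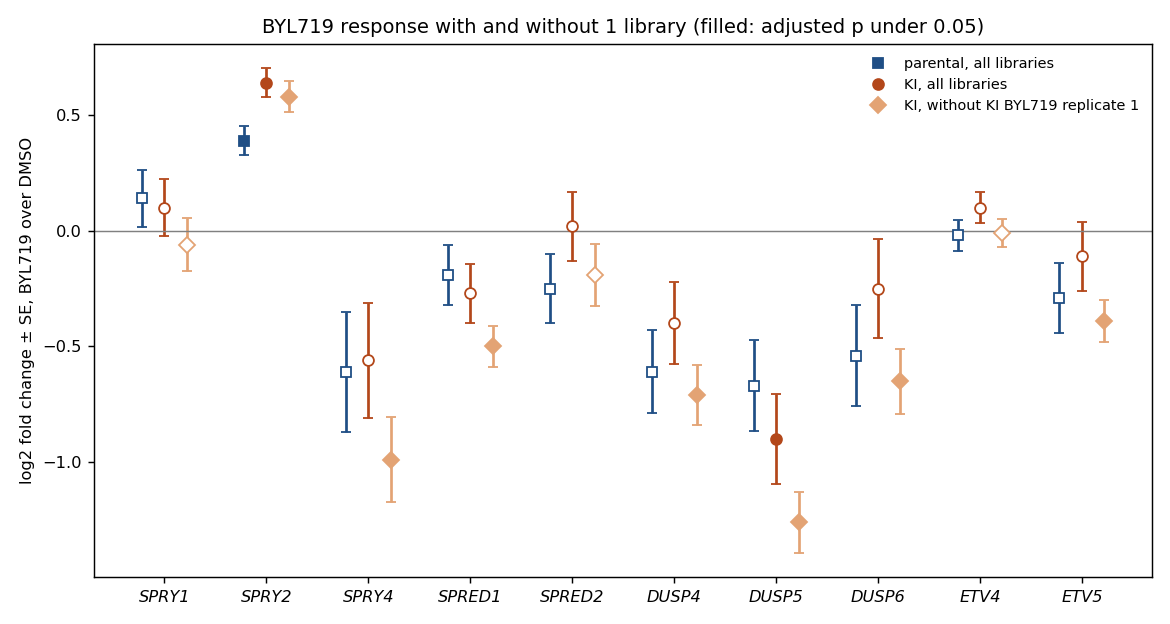
Log2 fold change of BYL719 over DMSO with its SE (vertical axis) in parental cells, in KI cells, and in KI cells without KI BYL719 replicate 1; filled symbols have an adjusted p under 0.05. Leaving out that library takes the KI values of SPRY4, SPRED1, DUSP4, DUSP6 and ETV5 from open to filled, for SPRY4 from -0.56 to -0.99, while SPRY2 stays above 0. The library was singled out by its high values in these same genes.

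Over the 12 libraries, SPRY4 ran closely with DUSP4 (Pearson r = 0.99), ETV5 (0.98), SPRED1 (0.97), DUSP6 (0.89) and DUSP5 (0.83). SPRY2 did not (r = -0.10 with SPRY4 and -0.58 with DUSP5), nor did ETV4 (-0.66 with SPRY4). These values describe libraries that share line and treatment and carry no test. Among 13758 genes outside the 10 with a mean of at least 1 CPM, the genes nearest in pattern to SPRY4 were PHLDA1 (r = 0.995), TNFRSF1A (0.990) and HMGA2 (0.987). PHLDA1 was also among the 3 nearest to SPRED1 (0.980), DUSP4 (0.990) and ETV5 (0.984), with means of 37.3 and 28.0 CPM in parental cells without and with BYL719 and of 66.1 and 51.4 CPM in KI cells. The nearest to DUSP5 were TRIB3 (0.995) and EPHA2 (0.987), and to DUSP6 SLC20A1 (0.970) and MYC (0.964). For SPRY2 they were IFNGR1 (0.979), ARRDC2 (0.972) and VEZF1 (0.962). For ETV4 they included NAB2 (0.975) and SERTAD4 (0.955). The nearest to SPRY1 was GRK4 (0.926) and to SPRED2 ARHGAP31 (0.949).

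Other genes of the pathway were counted from 4 lists. Of 13 other ERK output genes, 9 were higher in KI than in parental cells in DMSO, where 17.0% of all genes were, and none lower (median log2 0.60), led by FOSL1, an AP-1 subunit (0.93, adjusted p = 0.00398), cyclin D1 (CCND1, 0.90), PHLDA1 (0.85) and IER3 (0.78). Under BYL719 7 of 13 were higher in KI cells, against 11.5% of all genes, led by FOS (1.04, adjusted p = 4.47e-05). With BYL719 3 of 13 fell in parental cells, against 0.589% of all genes (FOSL1, CCND1 and the immediate early factor EGR1 at -0.52) and 5 of 13 in KI cells, against 13.2%, among them FOSL1 (-0.96), CCND1 (-0.93), IER3 (-0.82) and the receptor EPHA2 (-0.78). Without KI BYL719 replicate 1, 11 of 13 fell in KI cells, against 13.8% of all genes, and 5 in parental cells, where 220 of 21474 genes tested fell. Under BYL719 5 were then higher in KI cells, where 2104 of those genes were, with a median of 0.26 against 0.50. The list lay high in that library (median 0.49), so the added falls in either line are no independent support. Without KI DMSO replicate 2, 6 of 13 were higher in KI cells in DMSO, where 4232 genes were, against 3582 with all libraries. IER3 then no longer passed in DMSO (0.58, adjusted p = 0.113) or with BYL719 in KI cells (-0.64, adjusted p = 0.0984), nor did FOSL1 in parental cells (-1.01, adjusted p = 0.0675). This list was drawn up with earlier results of these libraries known and is no independent support.

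Of 14 other members of the SPRY, SPRED, DUSP and ETS families, 4 were higher and 2 lower in KI than in parental cells in DMSO, where 17.0% and 17.3% of all genes were. SPRED3 had a mean of 2.58 CPM in KI against 1.08 in parental cells (adjusted p = 2.14e-05), DUSP2 was higher by log2 0.93 and ETV1, the other PEA3 factor, by 0.78, and DUSP10, a phosphatase for p38 and JNK, was lower by -0.54. With BYL719 2 of 14 rose in parental cells: DUSP10 (0.69, adjusted p = 8.00e-05) and DUSP1 (0.31). These 2 compare with 0.831% of all genes. In KI cells 5 of 14 rose and 4 fell, against 15.1% and 13.2% of all genes, with DUSP10 at 1.03 and ELK3 at 0.47, and DUSP2 at -1.37 and SPRED3 at -0.64. DUSP10 was the 1 gene of this list whose response differed between the lines (interaction log2 0.34, adjusted p = 0.0355).

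Of 18 genes of the core cascade, 3 were higher and 3 lower in KI than in parental cells in DMSO, shares close to the 17.0% and 17.3% of all genes, with the RAS activators SOS2 (-0.41) and SOS1 (-0.36) lower and the adaptor SHC1 higher (0.33). In KI cells with BYL719 5 of 18 rose, with SOS2 (0.72, adjusted p = 0.00012) and BRAF (0.55) leading, and 2 fell, against 15.1% and 13.2% of all genes. Without KI BYL719 replicate 1 the counts were 2 and 4, where 2794 and 2960 of 21474 genes tested rose and fell. Without KI DMSO replicate 2 they were 5 and 8, where 3326 and 3651 of all genes did, against 3188 and 2780 with all libraries. SOS1 was at -0.18 in DMSO without KI DMSO replicate 2. Of 9 other restraints of RAS and receptors, 2 were lower in KI cells in DMSO, against 17.3% of all genes: DAB2IP, a RAS GTPase-activating protein (-0.82, adjusted p = 8.92e-08), and ERRFI1, an inhibitor of EGFR (-0.27). With BYL719 ERRFI1 rose in parental cells (0.73, adjusted p = 4.14e-05), as SPRY2 did. In KI cells 6 of 9 rose, against 15.1% of all genes, led by ERRFI1 (1.14, adjusted p = 3.68e-08), NF1 (0.46) and CBL (0.43). Without KI BYL719 replicate 1, 2 of 9 rose in KI cells, where 2794 of 21474 genes tested did. NF1 (0.35, adjusted p = 0.121) and CBL (0.34, adjusted p = 0.148) then did not pass. Without KI DMSO replicate 2 NF1 was at 0.24 and CBL at 0.21, both called. The ERRFI1 response was larger in KI cells (interaction log2 0.41, adjusted p = 0.0106).

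The estimated transcript make-up was described without a test. DUSP4 and DUSP5 came almost wholly from 1 transcript each, DUSP4-201 at 97.7% to 98.9% of the gene's TPM and DUSP5-201 at 99.1% to 100%. SPRY2-202 made up 87.2% to 91.0% of SPRY2, so its share was alike with and without BYL719. SPRY4-201, the long coding transcript, made up 62.9% ± 3.87 in parental DMSO and 67.6% ± 11.5 in KI DMSO. For DUSP6, DUSP6-201 made up 50.3% to 67.0% and the shorter coding DUSP6-202 16.2% to 29.5%. ETV5 is the exception among the factors: ETV5-210, a noncoding transcript of 642 nt, was assigned 35.9% to 50.1% of its TPM, which raises its place in the order of TPM above. In SPRED1 the noncoding SPRED1-202 was assigned 24.6% to 29.8%.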

How the data were processed

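The 12 MCF10A libraries were used. The authors deposited, per library and transcript, expected counts (estimated read pairs) and TPM with effective lengths. Per the submitters' processing notes the tools were Trim Galore 0.6.1, cutadapt, Salmon 1.2.1 and DESeq2 1.28.1, with GRCh38 as the human build; the sources used here do not state strandedness or RNA selection. Expected counts deposited by the authors were summed by gene symbol and rounded, and the deposited TPM were summed by symbol. Reads shared between transcripts were divided by Salmon's estimate, which the test does not see; DUSP5 has a pseudogene copy, DUSP5P1, at 0.183 to 0.707 CPM, and SPRY4 an antisense gene, SPRY4-AS1, at 0.105 to 0.354 CPM.

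Tests were edgeR 4.0.16 quasi-likelihood fits in R 4.3.3 (robust, filterByExpr, TMM, 4 group means, 8 residual degrees of freedom, two-sided), with Benjamini-Hochberg adjustment over all genes tested. The SE is the log2 fold change divided by the square root of F. On simulated counts for KI against parental cells in DMSO (20697 genes tested), 75% of genes changed by log2 0.5 and 98% of those changed by 1 were recovered. There, 11 unchanged genes were called. The changed genes were drawn from well-covered genes, and the simulated libraries had no shift shared between genes. These rates are therefore not the power for the 10 genes. Alternatives were DESeq2 1.42.0, no TMM, no filter, only the groups compared, a replicate block, protein-coding transcripts, effective-length offsets and leaving out each library. Leaving out both KI libraries that stand apart was chosen after seeing the data. So were the CGGAA motif and the weight given to the fits without KI BYL719 replicate 1. The genes and lists were chosen with earlier results of these data known. The text names all 10 genes, up to 4 called genes with the largest change per list, and genes among the 3 nearest in pattern; 1 of these is not reported here. Gene coordinates are from GENCODE 29 (GRCh38), matched by gene identifier.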

Additional observations from a re-analysis of the deposited data

How the results depend on the processing

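Leaving out 1 library gave 4 to 8 genes called between the lines in DMSO, 4 to 6 under BYL719, 0 to 3 for BYL719 in parental cells, 2 to 7 in KI cells and 0 for the interaction. For BYL719 in parental cells DESeq2 called 3 of the 10 and the fit of the parental libraries alone 4; 3 were called without both KI libraries that stand apart. Without those 2 libraries 8 were called for BYL719 in KI cells, where 8089 of all genes were, against 5968 with all libraries. SPRED2 there turned from log2 0.02 to -0.3251 (adjusted p = 0.023). For the interaction 1 of the 10 was then called, where 3581 of all genes were. KI BYL719 replicate 1 was singled out by its high values in these same genes, so the added calls are no independent support.

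Counts over all genes were 299 for BYL719 in parental cells, against 879 by DESeq2, 3486 with only the groups compared, 131 with effective-length offsets, 3119 without both KI libraries and 73 to 1973 without 1 library, the highest without KI DMSO replicate 2. They were 607 for the interaction, against 1422, 272 with offsets, 3581 without both and 243 to 1874 without 1. For BYL719 in KI cells 5968 became 2614 with only the groups compared and 4237 to 6977 without 1 library, and for the lines under BYL719 4710 became 8017 without both and 3564 to 7439 without 1. Leaving out 1 library gave 5761 to 8386 between the lines in DMSO, where the count was 7220. The cause was not tested; the fits of fewer libraries use another estimate of the spread.

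Deviations of same-numbered libraries of different groups were at most weakly correlated (r from -0.071 to 0.08 over 18 pairs, none over 0.1). Pairs of unlike number had r from -0.077 to 0.073. Yet 9 of 12 libraries correlated best with one of their own number, so these values do not settle whether the numbers pair the libraries. With the replicate block 6 of the 10 genes were called between the lines in DMSO, 1 and 2 for BYL719 in parental and KI cells, 6 between the lines under BYL719 and 0 for the interaction, the counts without it. Scaling by TMM library size moved no group mean of the 10 genes by more than 1.2%. At 1.34 to 2.22 CPM, SPRY1 is the gene that depth limits most. The fit of only the groups compared was not run for the interaction, which needs all 4 groups.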
